A study of Mus musculus with 13 samples.

Results

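The mouse genome encodes collagens as chains, each the product of its own gene, and 42 collagen chain genes were measured here among 18193 named genes. They were taken as every gene whose symbol has the form Col, a number, a and a number. Of 82 probe sets (groups of short oligonucleotides that report 1 transcript) annotated to them, none named a further gene, and where a gene had several, the one brightest on average across the 13 arrays stood for it. By assembly type, 11 genes encode fibrillar chains, 8 encode chains of the basement membrane (types IV, XV and XVIII) and 23 encode other types. A further 3 listed genes (Col6a6, Col21a1 and Col28a1) were not analysed here.

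Collagen chains wind in threes into a triple helix and form the scaffold of the extracellular matrix. Fibrillar chains build the fibres of connective tissue, type IV chains build the network under every epithelium, and smaller types link fibres, cells and basement membranes. In the prostate, basal epithelial cells sit on a basement membrane and stromal cells make most of the fibrillar collagen. The hormonal form of vitamin D, 1,25-dihydroxyvitamin D3 (1,25D), acts through the vitamin D receptor, a transcription factor that pairs with retinoid X receptors on DNA.

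RNA came from cultured prostate progenitor/stem cells of adult mice. The labels give the genotype as wild-type B1/6; 127/SVEV mice, the age as 10 wk and the passage as 22 for all groups. Cells received 1,25D at 100 nM or, as vehicle, the ethanol it was dissolved in (0.1%). Treatment lasted 48 h, with the medium renewed every 24 h (4 arrays with 1,25D and 3 with vehicle), or 6 h (3 arrays with 1,25D and 3 with vehicle). Nothing in the labels tells whether replicates came from separate cultures, so p-values measure the spread between these arrays, which may be technical. How many mice the cells came from is not stated either, and the number of arrays limits the precision.

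Cyp24a1, the enzyme that degrades 1,25D and a direct target of its receptor, checked the treatment labels. Its log2 signal averaged 12.39 ± 0.16 with 1,25D and 4.56 ± 0.42 with vehicle at 48 h, and 13.03 ± 0.20 with 1,25D and 4.53 ± 0.22 with vehicle at 6 h (SD). The labels name prostatic progenitor/stem cells, and bright epithelial markers were the basal keratins Krt5 and Krt14, with means over all arrays of 12.66 and 13.98, and the luminal keratins Krt8 and Krt18, at 13.60 and 13.52. Of 12 fibroblast markers measured, 2 lay among the dimmest 40% of probe sets, and the list ran from Lum at 4.02 and Pdgfra at 5.27 to S100a4 at 10.84, Vim at 10.99 and Fn1 at 12.24. Array medians ran from 5.57 to 5.67. A principal component holding 45.4% of the variance separated 48 h from 6 h, and the next, with 23.0%, set 1,25D 48 h replicate 4 and vehicle 6 h replicate 1 apart from the rest. Results that these arrays change are given with and without them.

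After 48 h of 1,25D, 3 collagen genes changed against vehicle. Col11a1, a minor chain of cartilage-type fibrils that sits inside them and helps set their diameter, fell by 3.00 on the log2 scale, which is 8.0-fold. Col8a1, a chain of the hexagonal networks of type VIII collagen, rose by 1.12 (2.17-fold). Col16a1, a chain that associates with the surface of fibrils, rose by 0.75 (1.68-fold). A change was called at an adjusted p under 0.05 in a limma fit over all arrays and 45037 probe sets, and rose, fell, higher and lower are used of called changes unless values alone are given. The 3 called genes are 7.14% of the 42, against 2.39% of all named genes called in this comparison. By direction, 1.43% of all genes were called higher and 0.951% lower, and whether collagens were called more often than other genes was not tested.

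The median log2 change of the 42 genes at 48 h was -0.0015, against -0.0024 over all named genes. It stayed under 0.5 in either direction in 38 of the 42. An unadjusted p under 0.05 was reached by 5 genes, the 3 above with Col4a5 and Col12a1. The arrays of the treated and vehicle groups did not overlap for 5 genes, with Col8a1, Col16a1 and Col15a1 on the higher side and Col11a1 and Col4a5 on the lower side. Of all genes, 12.6% had no overlap in this comparison. The plot of changes by class shows that 39 genes were not called.

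**Figure D1:**
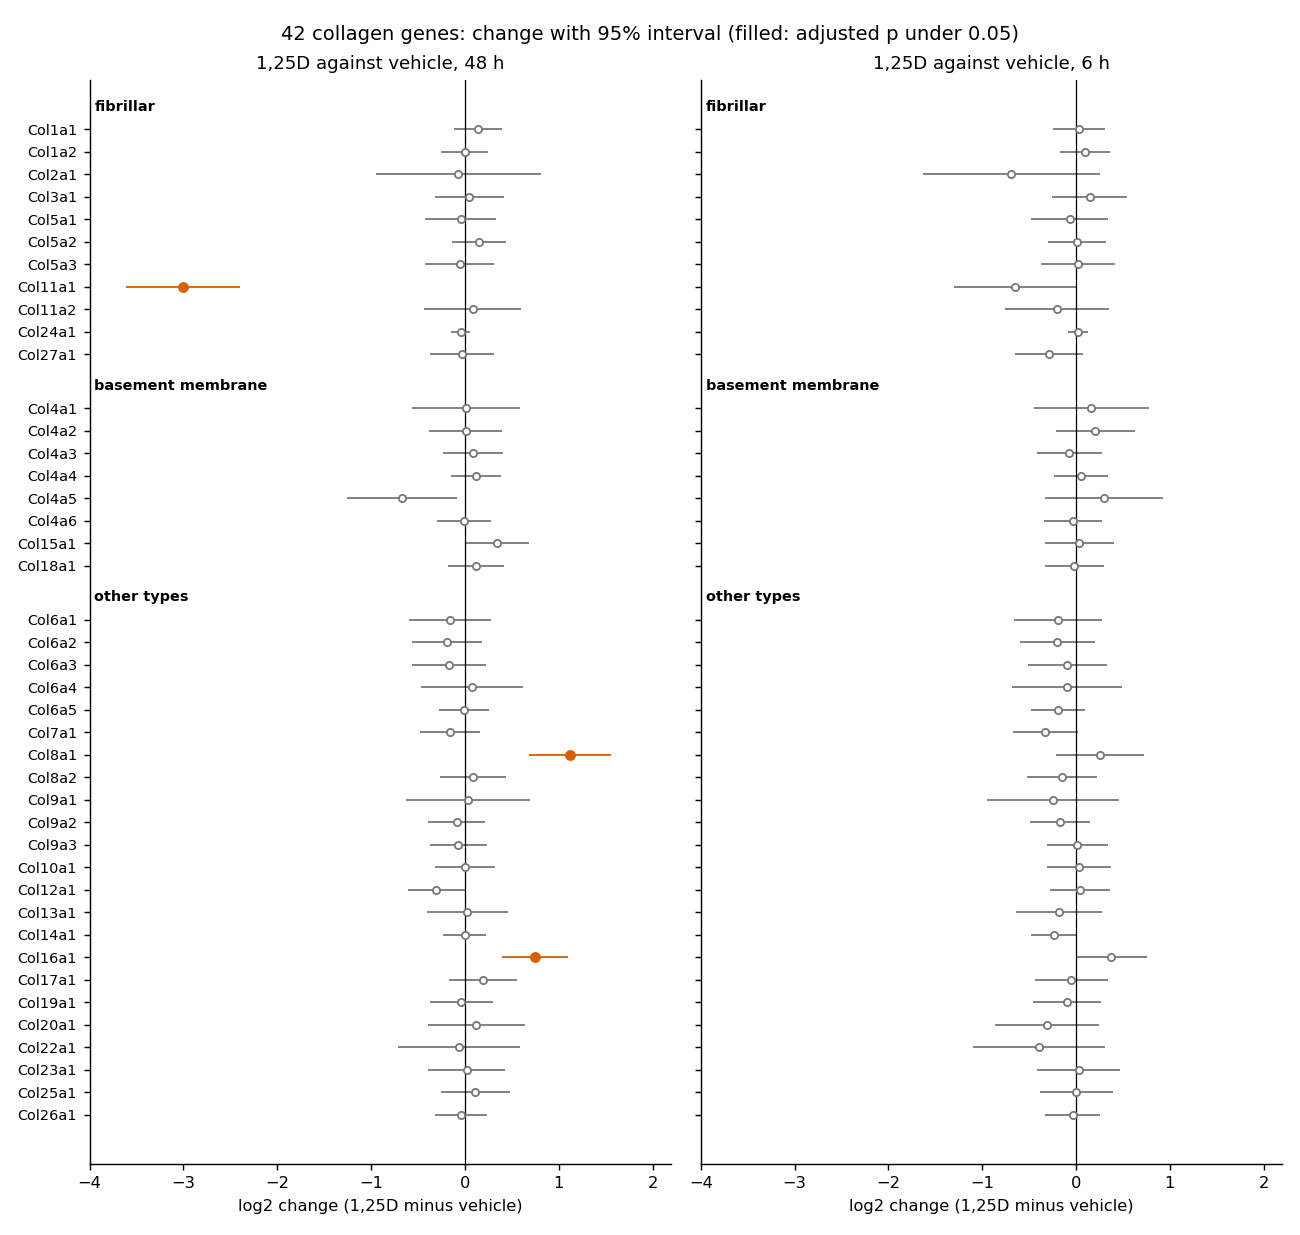
Log2 change of each of the 42 collagen genes (1,25D minus vehicle, horizontal axis) at 48 h on the left and at 6 h on the right, with 95% intervals from the limma fit and genes grouped by class. Filled orange points are called: at 48 h Col11a1 at -3.00, Col8a1 at 1.12 and Col16a1 at 0.75, and none at 6 h.

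Col11a1 separated the groups most clearly. At 48 h its log2 signal was 7.84, 7.78, 7.78 and 6.61 with 1,25D, against 10.75, 10.31 and 10.44 with vehicle. At 6 h it was 8.29, 8.52 and 8.10 with 1,25D, against 8.54, 8.91 and 9.43 with vehicle. On this probe set, which stands for the gene, every treated array lay below every vehicle array of its time. The gap was narrow at 6 h and wide at 48 h.

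The 48 h change of Col11a1 was -3.00 (SE 0.28, 95% interval -3.61 to -2.39, adjusted p = 3.65e-05). Replicate 4 of the treated group, which stands apart as an array, held the lowest value. Without both arrays that stand apart the change was -2.70 (adjusted p = 4.44e-07). The other probe set of the gene, 1449154_at, gave 7.20, 7.29, 7.23 and 5.67 with 1,25D, against 10.07, 9.73 and 9.87 with vehicle. Its change of -3.04 (adjusted p = 2.3e-04) was called in the same direction. At 6 h 1449154_at gave 7.32, 7.98 and 7.60 with 1,25D, against 7.27, 8.01 and 8.12 with vehicle. These 6 h groups overlapped and the change was not called.

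Among the 4 chondrocyte markers none was called at 48 h, and 2 had an unadjusted p under 0.05. These were Sox9, at -0.32, and Matn3, at 0.37, in opposite directions. Comp was at 0.37 and Acan at -0.03. Opposite values cancel in the mean signal of the list, which ranged from 6.60 to 7.16 with 1,25D and from 6.58 to 6.81 with vehicle. Of the 12 fibroblast markers, S100a4, a calcium-binding protein, fell by 0.86 (adjusted p = 2.3e-04) and the other 11 were not called. An unadjusted p under 0.05 was reached by 3 of the 12, S100a4, Vim at -0.55 (adjusted p = 0.0565) and Fbln1 at -0.35 (adjusted p = 0.307). For these 3 every treated array lay below every vehicle array, against 12.6% of all genes without overlap in either direction. Of the 12 values, 6 lay above 0. The mean signal of that list ranged from 7.06 to 7.29 with 1,25D and from 7.17 to 7.27 with vehicle. The immune marker Cd68, a lysosomal protein, rose by 1.23 (adjusted p = 8.46e-04), while Ptprc, the common leukocyte marker, averaged 4.13 with 1,25D and 4.24 with vehicle. Epithelial markers moved as well: of 7 luminal markers Krt8 fell by 0.43 and Krt18 fell by 0.34, while Krt19 rose by 0.58, and of 6 basal markers Krt17 rose by 0.78. The part of these markers in the collagen changes was not tested. Fewer cells of a type and less RNA per cell cannot be told apart in such bulk RNA.

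Col8a1 rose at 48 h. Its log2 signal was 9.34, 9.77, 9.09 and 9.30 with 1,25D, against 8.51, 7.91 and 8.35 with vehicle. All 4 treated arrays lay above the 3 vehicle arrays, and the change of 1.12 had an SE of 0.20 (95% interval 0.68 to 1.56, adjusted p = 0.0118). At 6 h the groups overlapped, with 8.30, 8.78 and 8.41 under 1,25D, against 8.03, 8.09 and 8.62 under vehicle. Without vehicle 48 h replicate 2, the lowest of its group, the 48 h change was 0.95 and no longer called (adjusted p = 0.0857).

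The 3 probe sets of Col8a1 differed. At 48 h 1418440_at gave 8.55, 8.53, 8.59 and 8.26 with 1,25D, against 7.50, 7.59 and 7.67 with vehicle, a called rise of 0.89 (adjusted p = 0.00605). The dimmer 1418441_at gave 5.74, 7.05, 5.63 and 5.45 with 1,25D, against 6.20, 5.20 and 5.52 with vehicle, and its change of 0.33 was not called. The plot of every probe set shows that groups separated at 48 h on 2 of these 3 probe sets. Col8a2, the partner chain of type VIII collagen, had a change of 0.09 (95% interval -0.26 to 0.44) and was not called.

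**Figure D2:**
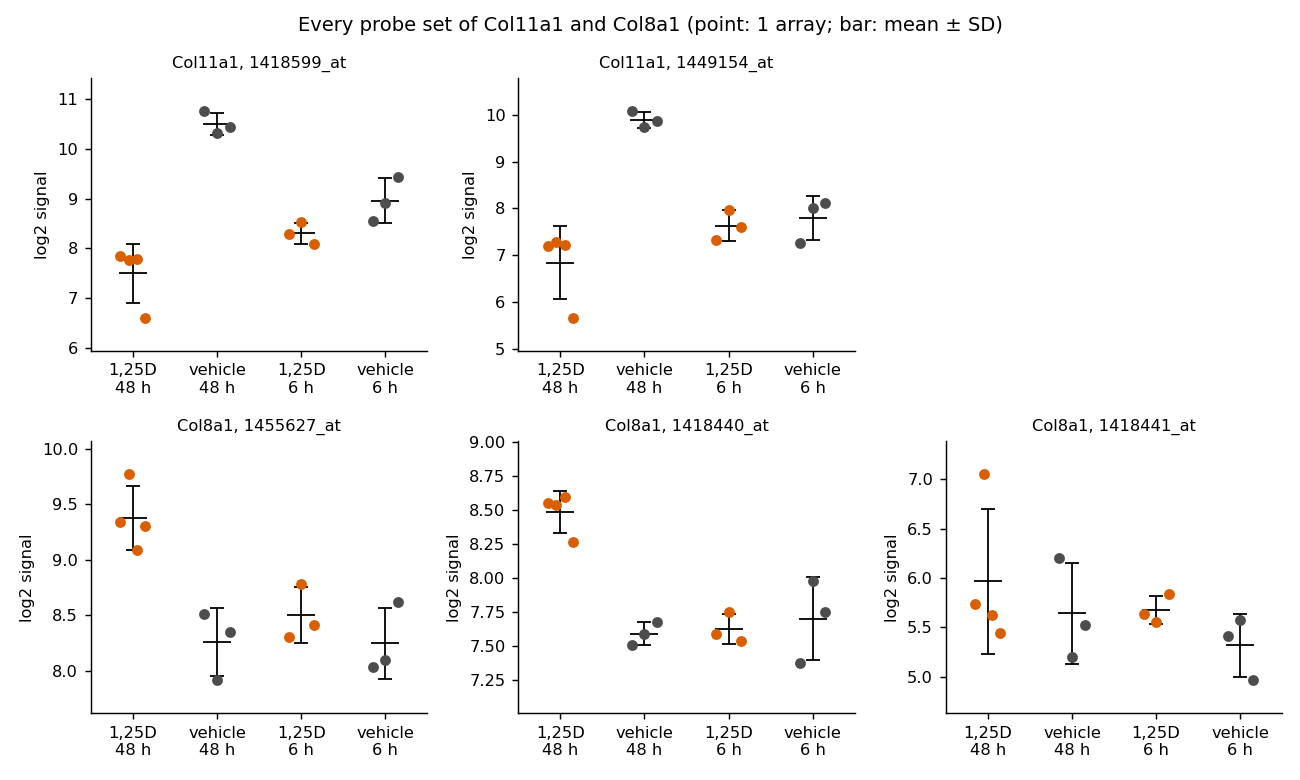
Log2 signal (vertical axis) of each probe set of Col11a1 (top row) and Col8a1 (bottom row) in the 4 groups, with a point for each array and bars for the mean ± SD. At 48 h both Col11a1 probe sets lie lower with 1,25D and 2 of the 3 Col8a1 probe sets lie higher, while 1418441_at overlaps.

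Col16a1 was represented by 1 probe set. Its log2 signal at 48 h was 8.03, 7.81, 7.92 and 8.31 with 1,25D, against 7.22, 7.45 and 7.12 with vehicle. Treated arrays all lay above vehicle arrays, and the change of 0.75 had an SE of 0.16 (95% interval 0.40 to 1.10, adjusted p = 0.0390). This call lay near the threshold: it was lost, with an adjusted p of up to 0.219, when 9 of the 13 arrays were left out one at a time. These were vehicle 48 h replicates 1, 2 and 3, 1,25D 48 h replicates 1, 3 and 4, vehicle 6 h replicate 3 and 1,25D 6 h replicates 1 and 2, and the change then ranged from 0.65 to 0.84. At 6 h the values were 7.58, 7.53 and 7.24 with 1,25D, against 7.35, 6.84 and 7.04 with vehicle, a change of 0.37 that was not called (adjusted p = 0.844).

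The stretches upstream of these 3 genes are shown because they are the collagen genes called at 48 h. Whether 1,25D acts on them through these stretches was not tested. They come from RefSeq on GRCm38.p6, run 5′ to 3′ on the gene's strand and end just before its outermost annotated start. Between 189 and 250 bases are shown, since transcribed bases were left out. Capitals mark matches on either strand to the motifs searched.
Col11a1: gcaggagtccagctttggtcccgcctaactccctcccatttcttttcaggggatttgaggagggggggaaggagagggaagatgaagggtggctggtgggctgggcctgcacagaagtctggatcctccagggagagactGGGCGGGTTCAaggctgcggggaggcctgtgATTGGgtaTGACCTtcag
Col8a1: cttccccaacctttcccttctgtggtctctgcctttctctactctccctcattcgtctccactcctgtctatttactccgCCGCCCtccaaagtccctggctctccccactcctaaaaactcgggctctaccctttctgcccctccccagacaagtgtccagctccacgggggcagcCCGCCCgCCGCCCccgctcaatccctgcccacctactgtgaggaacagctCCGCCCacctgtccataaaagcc
Col16a1: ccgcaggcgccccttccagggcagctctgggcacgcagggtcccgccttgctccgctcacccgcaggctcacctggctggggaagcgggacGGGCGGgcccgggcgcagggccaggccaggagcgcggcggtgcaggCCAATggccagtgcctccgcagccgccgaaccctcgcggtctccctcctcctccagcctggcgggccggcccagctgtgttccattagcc

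The Col11a1 stretch lies at chr3:114030290-114030478 on the plus strand, the Col8a1 stretch at chr16:57754738-57754987 on the minus strand and the Col16a1 stretch at chr4:130047590-130047816 on the plus strand. Searched on both strands were the GC box GGGCGG, the CCAAT box, the TATA box TATAAA and hexamers of the kind found in binding sites of nuclear receptors. The hexamers were AGGTCA in its usual form, then AGTTCA as a variant, also GGGTCA as a variant, and finally GGTTCA as a variant. Col11a1 held a GC box, which shares 1 base with a GGTTCA, and also an AGGTCA on the opposite strand (read as TGACCT) and a CCAAT on the opposite strand. Col8a1 held 4 GC boxes on the opposite strand, and Col16a1 held a GC box and a CCAAT.

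Of 32851 mouse promoter entries searched over 250 bases upstream of the listed start, a window as long as or longer than the stretches above, 32.7% held the GC box, 33.8% CCAAT, 14.0% AGGTCA, 11.8% AGTTCA, 11.6% GGGTCA, 8.85% GGTTCA and 12.4% TATAAA. Of 36 entries of 33 collagen genes, 58.3% held the GC box, 36.1% CCAAT, 22.2% AGGTCA, 5.56% AGTTCA, 13.9% GGGTCA, 13.9% GGTTCA and 13.9% TATAAA. A pair of the 4 hexamers in 1 direction and 3 bases apart, the spacing known for the vitamin D receptor with retinoid X receptors, was in 0 of the 36 and in 0.0396% of all entries. These matches describe letters in the windows and are not binding sites. A window without a match says only that the letters are not in it.

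Of the 11 fibrillar genes, none rose at 48 h, Col11a1 fell and 10 were not called, with a median change of -0.0348. Outside Col11a1 the largest fibrillar change in either direction was 0.15. Col1a1 and Col1a2, the chains of type I collagen, had changes of 0.14 (95% interval -0.12 to 0.39) and -0.0016 (-0.25 to 0.25). Col3a1, the chain of type III collagen, had a change of 0.05 (95% interval -0.32 to 0.42). These intervals cover changes of either sign.

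Col1a1 and Col3a1 gave dim signals. Col1a1 read 4.84, 4.46, 4.70 and 4.38 with 1,25D, against 4.47, 4.39 and 4.51 with vehicle at 48 h. Col3a1 read 4.52, 3.82, 4.05 and 4.65 with 1,25D, against 4.14, 4.22 and 4.27 with vehicle. Both sets overlapped, and both probe sets lay among the dimmest 40%, as did those of 5 of the 11 fibrillar genes and 16 of the 42 collagen genes. Detection calls were not used, so whether such a gene was transcribed is not known, and a change of a dim gene may be understated.

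The chains of type V collagen, which copolymerise with type I, were Col5a1 with a change of -0.05 (95% interval -0.43 to 0.34) and Col5a2 with 0.15 (-0.13 to 0.44). Col5a2 had the largest upward value of the fibrillar class and was not called. On 1,25D 48 h replicate 4 it read 5.04, against 4.38 to 4.52 on the other treated arrays. Col27a1, a fibrillar chain of cartilage, had a change of -0.03 (95% interval -0.38 to 0.31).

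None of the 8 basement membrane genes was called at 48 h (1 had an unadjusted p under 0.05), and their median change was 0.0477. Col4a1 and Col4a2, the chains found in nearly all basement membranes, both had a change of 0.01, with 95% intervals of -0.57 to 0.58 and -0.38 to 0.40. Col4a2 read 8.04, 7.83, 8.05 and 7.90 with 1,25D, against 7.89, 7.81 and 8.14 with vehicle. The range of the vehicle arrays spans all 4 treated arrays. Col18a1, whose product carries heparan sulfate and yields endostatin, read 10.04, 9.84, 9.82 and 9.94 with 1,25D, against 9.80, 9.67 and 9.91 with vehicle, a change of 0.12 (95% interval -0.17 to 0.41).

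The largest values of the class were those of Col15a1 and Col4a5, in opposite directions. Col15a1, which bridges basement membrane and underlying fibrils, had a change of 0.34 (95% interval -0.0021 to 0.68, adjusted p = 0.723). Col4a5, a chain of the basement membrane of the renal glomerulus and of skin, had a change of -0.67 (95% interval -1.26 to -0.09, adjusted p = 0.548). It read 9.53, 9.17, 9.31 and 8.90 with 1,25D, against 9.86, 9.76 and 10.08 with vehicle. These groups did not overlap although the change was not called.

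In the remaining 23 genes, 2 rose at 48 h (Col8a1 and Col16a1), none fell and 21 were not called, with a median change of -0.0021. Col12a1, which coats fibrils as Col16a1 does, had the lowest value of the class, -0.31 (95% interval -0.61 to -0.0038, adjusted p = 0.703). It read 7.007, 6.963, 7.004 and 7.441 with 1,25D, against 7.52, 7.48 and 7.23 with vehicle. Only replicate 4 of the treated group reached into the range of the vehicle arrays. None of the 5 measured beaded filament chains of type VI was called, with changes from -0.20 to 0.07.

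Chains that anchor epithelium to its basement membrane showed no call. Col17a1, a transmembrane chain of hemidesmosomes, read 9.83, 9.10, 9.64 and 9.48 with 1,25D, against 9.14, 9.27 and 9.55 with vehicle, a change of 0.19 (95% interval -0.17 to 0.56). Col7a1, the chain of anchoring fibrils, read 7.75, 7.42, 7.37 and 7.92 with 1,25D, against 7.60, 7.96 and 7.76 with vehicle. Its change was -0.16 (95% interval -0.48 to 0.17). Both genes had overlapping groups at 48 h.

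At 6 h none of the 42 collagen genes was called in the limma fit, against 0.852% of all named genes. By direction, 0.687% of all genes were called higher and 0.165% lower. The median collagen change was -0.0427, against -0.0203 over all genes, and 40 of the 42 changes stayed under 0.5. Col11a1 alone reached an unadjusted p under 0.05, with a change of -0.65 (95% interval -1.30 to -0.01, adjusted p = 0.837). Without the arrays that stand apart its change was -0.86 and 1 gene, Col11a1, was called (adjusted p = 0.0430). With all arrays, the 6 h groups overlapped on the other probe set of Col11a1, which was not called.

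The groups did not overlap at 6 h for 3 of the 42 collagen genes, all on the lower side: Col11a1, Col7a1 and Col27a1. Of all named genes 10.2% did not overlap in either direction, which is 1853 genes, 1033 of them on the higher side. Col7a1 read 7.37, 7.45 and 7.30 with 1,25D, against 7.69, 7.65 and 7.77 with vehicle, a change of -0.33 that was not called (adjusted p = 0.879). Col27a1 read 7.15, 7.14 and 7.04 with 1,25D, against 7.60, 7.32 and 7.29 with vehicle. The most negative value at 6 h, -0.69, was that of Col2a1, the chain of cartilage collagen, and was not called.

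The response to 1,25D at 48 h minus that at 6 h was tested directly. It was called for Col11a1 alone, at -2.35 (SE 0.41, 95% interval -3.23 to -1.46, adjusted p = 0.0256), and for 0.632% of all named genes (0.346% in the positive and 0.286% in the negative direction). The other probe set of Col11a1 gave -2.88 (adjusted p = 0.0256). The call was lost, with an adjusted p of 0.0551 to 0.0898, when any one of vehicle 6 h replicates 1 and 2, the 3 treated 6 h arrays or the 3 vehicle 48 h arrays was left out. The value then ranged from -2.45 to -2.14. Without the 2 arrays that stand apart it was -1.84 (adjusted p = 0.00251).

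For Col8a1 the difference between times was 0.87 and not called (adjusted p = 0.567), so its rise is not shown to differ between 48 h and 6 h. The same holds for Col16a1, at 0.38. The median difference over the 42 genes was 0.0934, against 0.01 over all genes, and 3 genes reached an unadjusted p under 0.05. The 48 h response, the difference and the comparison of vehicle arrays over time share arrays, so their values are given side by side only.

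**Figure D3:**
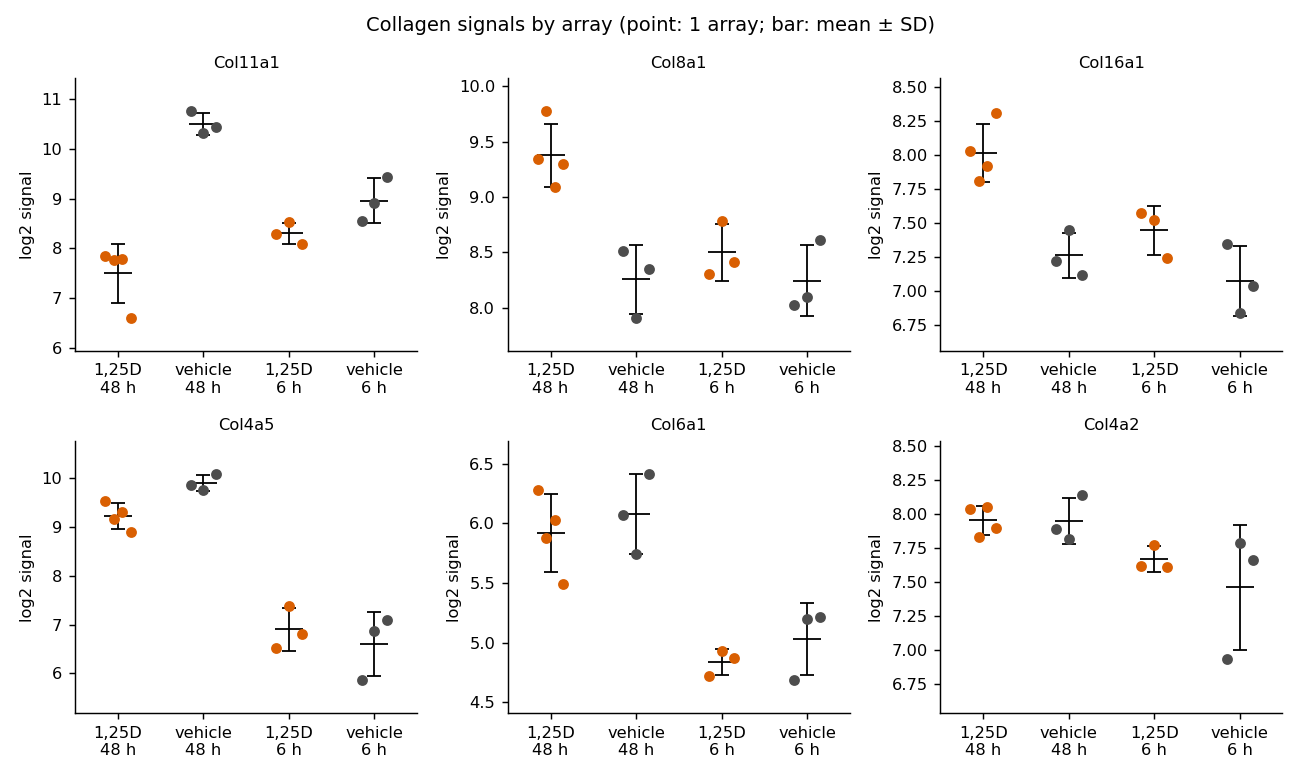
Log2 signal (vertical axis) of 6 collagen genes in the 4 groups, with a point for each array and bars for the mean ± SD. Col11a1 lies lowest with 1,25D at 48 h and highest with vehicle at 48 h, Col4a5 and Col6a1 lie higher at 48 h than at 6 h under both treatments, and the Col4a2 groups overlap within each time.

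With vehicle alone, 3 collagen genes were higher at 48 h than at 6 h and none was lower. They are 7.14% of the 42 genes, against 18.6% of all named genes called over this interval (9.84% higher and 8.75% lower). The median collagen change was -0.0401, against -0.0262 over all genes. The groups did not overlap for 7 collagen genes, 4 of them higher, and for 31% of all genes. Time in culture and any difference in processing between the 48 h and 6 h arrays cannot be told apart.

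Col4a5 had the largest change over time. With vehicle it read 9.86, 9.76 and 10.08 at 48 h, against 5.86, 6.87 and 7.09 at 6 h, a change of 3.30 (9.83-fold, SE 0.29, adjusted p = 5.79e-06). With 1,25D it read 9.53, 9.17, 9.31 and 8.90 at 48 h, against 6.51, 7.37 and 6.82 at 6 h. All 48 h arrays of either treatment lay above all 6 h arrays. The other probe set, 1425475_at, gave a called rise of 1.81 in vehicle (adjusted p = 8.2e-05), a smaller value. Without the arrays that stand apart the change of Col4a5 was 2.92.

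Col4a6, the neighbour of Col4a5, had a change of -0.04 over the same interval (95% interval -0.35 to 0.27) and was not called. Its log2 signal with vehicle averaged 5.54 at 48 h and 5.58 at 6 h, near the median of all probe sets. Whether this probe set would report a change is not known. In the RefSeq table the annotated starts of these genes lie head to head on chromosome X, 1275 bases apart. The stretches upstream of both starts are shown because Col4a5 was called over time and Col4a6 was not.
Col4a5: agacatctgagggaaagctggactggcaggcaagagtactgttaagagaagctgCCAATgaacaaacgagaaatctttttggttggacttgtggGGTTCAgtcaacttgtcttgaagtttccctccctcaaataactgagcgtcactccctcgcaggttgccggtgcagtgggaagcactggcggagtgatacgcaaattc
Col4a6: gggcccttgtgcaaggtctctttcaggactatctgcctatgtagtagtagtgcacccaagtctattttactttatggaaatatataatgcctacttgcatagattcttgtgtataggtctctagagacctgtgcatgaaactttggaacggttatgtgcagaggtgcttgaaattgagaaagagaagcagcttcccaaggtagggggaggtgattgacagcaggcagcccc

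The Col4a5 stretch lies at chrX:141475169-141475369 on the plus strand and the Col4a6 stretch at chrX:141474096-141474326 on the minus strand (GRCm38.p6). Col4a5 held a CCAAT and a GGTTCA, in capitals, and Col4a6 held none of the motifs searched. Both stretches are poorer in G and C, at 49.8% and 45.5%, than those of Col11a1 at 60.3%, Col8a1 at 60.8% and Col16a1 at 75.8%.

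Col11a1 was also higher with time in vehicle, by 1.54 (SE 0.30, adjusted p = 0.00334), with means of 10.50 ± 0.23 at 48 h and 8.96 ± 0.44 at 6 h (SD, n = 3 each). With 1,25D its means were 7.50 ± 0.60 at 48 h (n = 4) and 8.30 ± 0.21 at 6 h (n = 3). Col6a1, a chain of the beaded filaments of type VI collagen, read 6.07, 5.74 and 6.41 with vehicle at 48 h, against 4.68, 5.20 and 5.22 at 6 h. Its change was 1.05 (2.06-fold, SE 0.22, adjusted p = 0.00524).

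With 1,25D Col6a1 read 6.28, 5.88, 6.03 and 5.49 at 48 h, against 4.72, 4.93 and 4.87 at 6 h, and the hormone comparison at 48 h gave -0.16, not called. Col6a2, its usual partner, had a change of 0.11 with time in vehicle and was not called. Col4a2 had a change of 0.48 (adjusted p = 0.146) and Col4a1 one of 0.21 (adjusted p = 0.812). Col5a1 had a change of -0.50 (adjusted p = 0.122), which was called at -0.68 without vehicle 6 h replicate 3 (adjusted p = 0.0362). Col18a1 had one of -0.46 (adjusted p = 0.0560), called at -0.63 without vehicle 6 h replicate 1 (adjusted p = 0.00527). Its other probe set read 9.81, 9.94 and 9.87 with vehicle at 48 h, against 9.79, 10.28 and 10.03 at 6 h. Those groups overlapped. Without the arrays that stand apart, 5 collagen genes were called: Col4a5, Col6a1, Col11a1 and the transmembrane chain Col23a1 higher, and Col18a1 lower at -0.63 (adjusted p = 0.00508).

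The other 40 probe sets of collagen genes held 2 calls at 48 h, for Col8a1 and Col11a1, and 3 over time in vehicle, for Col4a5, Col9a1 and Col11a1. All were in the direction of the gene's own call except that of Col9a1, a chain of fibril-associated type IX collagen, which was higher on 1428571_at (adjusted p = 0.0302) while the brighter probe set that stood for the gene was not called. The change on that brighter probe set of Col9a1 was -0.16, of the opposite sign. No probe set of a collagen gene was called in the direction opposite to a called change of its gene.

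Genes that make, link, bind and degrade collagen were followed in a list of 55, of which 50 were measured. At 48 h 3 rose and 1 fell, which is 8.0% of the 50, against the 2.39% of all genes given above. At 6 h 1 fell, against 0.852% of all genes. The median change of the list at 48 h was -0.0257.

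Of 16 genes for hydroxylation and folding, 1 rose and 1 fell at 48 h. Plod1, a lysyl hydroxylase that prepares collagen for crosslinks, read 9.06, 8.80, 9.12 and 8.60 with 1,25D, against 7.93, 7.96 and 8.08 with vehicle. It rose by 0.90 (SE 0.18, adjusted p = 0.0246). P3h2, a prolyl 3-hydroxylase active on type IV collagen, read 8.06, 8.25, 7.84 and 8.05 with 1,25D, against 8.84, 8.70 and 9.01 with vehicle.

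P3h2 fell by 0.80 (SE 0.13, adjusted p = 0.00412). Neither gene's groups overlapped at 48 h. The call of Plod1 was lost when any vehicle 48 h array or 1,25D 48 h replicate 1 or 3 was left out (0.83 to 0.95, adjusted p of 0.0829 to 0.129). With the mean of all its probe sets the change was 0.48 and still called. None of the 5 genes for export from the endoplasmic reticulum or the 6 for propeptide cleavage was called at 48 h, and 0 of them had an unadjusted p under 0.05.

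Of 4 crosslinking enzymes, Lox, the lysyl oxidase, rose by 0.73 at 48 h (SE 0.16, adjusted p = 0.0413). It read 10.26, 10.25, 10.05 and 10.21 with 1,25D, against 9.69, 9.29 and 9.41 with vehicle, and the groups did not overlap. Its call held in 3 of the 13 fits that left out 1 array, with an adjusted p of up to 0.234 in the others. The arrays whose loss ended it were all 7 arrays of 48 h, vehicle 6 h replicate 3 and 1,25D 6 h replicates 1 and 3, and the change then ranged from 0.64 to 0.84. With the mean of all its probe sets the change was 0.46 (adjusted p = 0.221).

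Among 9 receptors none was called at 48 h, and 2 had an unadjusted p under 0.05. They were Itga2, the collagen-binding integrin chain, at 0.62 (adjusted p = 0.0535), and Ddr1, at -0.27 (adjusted p = 0.519). Ddr1 is a receptor tyrosine kinase activated by collagen. At 6 h it read 10.40, 10.26 and 10.30 with 1,25D, against 10.65, 11.02 and 11.10 with vehicle. It fell by 0.60 (SE 0.12, adjusted p = 0.0284) on a probe set that can match several transcripts. This call was lost without such probe sets (adjusted p = 0.341), with the mean of all its probe sets (-0.27, adjusted p = 0.671), and also when any treated 6 h array, vehicle 6 h replicates 2 and 3 (one at a time) or the first treated 48 h array was left out (-0.64 to -0.51, adjusted p of 0.0537 to 0.132).

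Among 10 genes of collagen degradation, Mmp13, the collagenase that cleaves fibrillar collagen in the mouse, rose at 48 h and 9 were not called. It read 9.88, 9.73, 9.61 and 9.74 with 1,25D, against 5.27, 5.17 and 5.95 with vehicle. The rise was 4.28 (19.4-fold, SE 0.19, adjusted p = 2.09e-08). At 6 h it read 4.72, 4.71 and 4.90 with 1,25D, against 3.54, 4.05 and 4.04 with vehicle, a change of 0.90 that was not called (adjusted p = 0.0833) unless vehicle 48 h replicate 3 was left out (adjusted p = 0.0264). The difference between the responses at 48 h and 6 h was 3.38 (adjusted p = 8.65e-05).

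**Figure D4:**
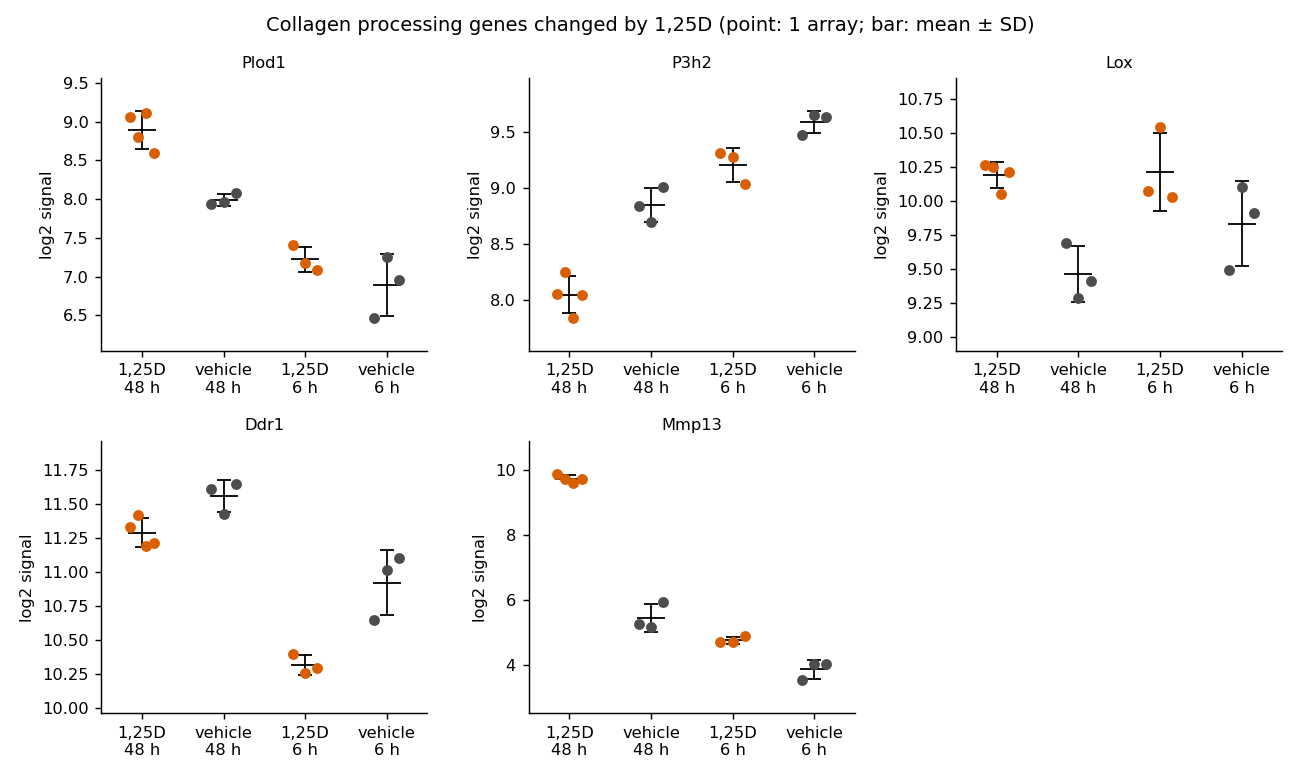
Log2 signal (vertical axis) of the 5 collagen processing genes called at 48 h or 6 h, with a point for each array and bars for the mean ± SD. At 48 h Mmp13, Plod1 and Lox lie higher and P3h2 lower with 1,25D than with vehicle, and Ddr1 lies lower with 1,25D at 6 h.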

How the data were processed

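Probe set signals of 13 arrays were used. The authors deposited log2 values, between about 3 and 14 on every array. The submitters' processing notes name MAS5, with no version or role, and further steps are not given in the sources used here. The values were used as deposited, with no offset. The table holds 45101 probe sets, as many as the whole-genome array of this family has, although the design text gives the A chip. After 64 control sets were removed, 45037 were tested. Gene names are those of the platform annotation.

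Group means were fitted in limma 3.58.1 (R 4.3.3, eBayes with an intensity trend, two-sided), with Benjamini-Hochberg adjustment over all 45037 probe sets. Intervals are 95% intervals of that fit and cover the spread between arrays. Percentages of genes called refer to the 18193 genes with 1 probe set each. Motifs were searched with Python 3.11.15, and figures were drawn with matplotlib 3.10.9. The fit was tested on simulated data with independent noise and no arrays that stand apart. That does not test the calls that such arrays change.

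Collagen genes were named if called in any comparison, if among 12 chosen chains, or if largest in either direction in their class at 48 h. Up to 4 called members of each processing list were named. Probe sets, markers, partner chains, further collagen genes and the receptor gene Itga2 beside them were named after their values were seen. Members and lists were chosen with earlier results of these data known. Deviations of same-numbered arrays correlated at 0.277, 0.222 and 0.069 at 6 h, against -0.266 to 0.153 for other numbers. There each treated array was closest to the vehicle array of its own number, though weakly. At 48 h the values were -0.009, -0.534 and 0.386, against -0.418 to 0.539 for other numbers. Since same-numbered arrays did not deviate together at both times, the main fit used no pairing. A fit with the replicate number as a block is among the alternatives. Descriptions of treated replicates count upward in the digit ending the hormone's name, and the name in the titles was used.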

Additional observations from a re-analysis of the deposited data

Results flagged for a closer look

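In the 1,25D 48 h group, the only one with 4 arrays, 6 of 47 genes tested (the 42 collagen genes and 5 processing genes) had an array far from the other 3. Chance alone flags about 1 in 20 groups. In 5 of the 6 the distant array was replicate 4, which stands apart from the rest. It was highest for Col2a1, at 6.80, Col9a1, at 6.74, Col11a2, at 5.75, and Col12a1, at 7.44, and lowest for Col11a1, at 6.61. Col24a1 had its lowest value, 3.33, on replicate 1.

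Over all 42 collagen genes, 1,25D 48 h replicate 4 held the highest value of its group for 28, against 36.9% of all named genes. Vehicle 6 h replicate 1, the other array that stands apart, did so for 22, against 38.1% of all genes. Among the 16 collagen genes in the dimmest 40%, each of these arrays was the highest for 12. The share among all dim genes was not counted, so this is not shown to be particular to collagens. The interquartile range of log2 signals was 2.95 on 1,25D 48 h replicate 4 and 3.03 on vehicle 6 h replicate 1, against 3.27 to 3.46 on the other arrays.

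The response to 1,25D differed between 48 h and 6 h, by the interaction term in limma, for Col11a1 (-2.35) and for Mmp13 (3.38).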

How the results depend on the processing

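Of 82 changes of single genes recomputed under each alternative that gave them a value, 72 kept their side of the threshold throughout and 10 did not; none reversed in sign where called. Without the 2 arrays that stand apart, the collagen genes called numbered 1 at 6 h (0 in the fit reported) and 5 over time in vehicle (3), and the processing genes called at 6 h numbered 2 (1). The processing gene called at 6 h, Ddr1, gave a count of 0 with each array centred on its median, without an intensity trend, with only the groups compared, with the replicate number as a block, without probe sets prone to match more than 1 transcript, and with the mean of all probe sets. Median centring left 2 processing genes at 48 h (4), where Plod1 and Lox had adjusted p-values of 0.0503 and 0.0718. With 1 array left out at a time, collagen calls ranged from 0 to 0 at 6 h, from 1 to 3 at 48 h, from 0 to 1 for the difference and from 3 to 4 over time in vehicle, and processing calls from 0 to 2 at 6 h and from 2 to 5 at 48 h. The count of 1 at 48 h came without vehicle 48 h replicate 2. Col11a1 stayed called at 48 h in all 23 alternatives (-3.11 to -2.70), and so did Col4a5 over time in vehicle (2.55 to 3.54). Col16a1 at 48 h was also lost under quantile normalization (adjusted p = 0.0972) and with only the groups compared (0.0691). With the replicate block, which leaves out the unmatched replicate 4, Col11a1 was -2.70 (adjusted p = 3.68e-05) and Col8a1 1.15 (0.0430) at 48 h, and Col16a1, at 0.65 (0.101), and Lox, at 0.72 (0.106), were no longer called. Without an intensity trend Lox had an adjusted p of 0.0542. Fitting only the groups compared gives no value for the difference, and Col1a1, Col3a1 and Col5a2 have none when the dimmest 40% of probe sets are left out. Causes were not tested. Signal over background was not available, which limits what can be said of dim genes.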

Other observations

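Over time in vehicle, genes that process collagen changed in both directions: of 50 measured, 8 were higher and 3 lower at 48 h than at 6 h, which is 22.0%, against 18.6% of all named genes. The genes named here were chosen after their values were seen. The prolyl 4-hydroxylase chains P4ha2 and P4ha1, which stabilise the triple helix, averaged 9.20 and 8.25 at 48 h, against 6.38 and 6.86 at 6 h. P4ha2 rose by 2.82 (adjusted p = 4.91e-07) and P4ha1 by 1.39 (adjusted p = 1.61e-04). The lysyl hydroxylases Plod1 and Plod2 rose by 1.09 and 0.65. Pcolce2, an enhancer of propeptide cleavage, averaged 5.60 ± 0.37 at 48 h, against 8.91 ± 0.25 at 6 h (SD, n = 3 each), and fell by 3.31 (adjusted p = 4.91e-07), while its relative Pcolce rose by 0.71. Crtap, a partner of prolyl 3-hydroxylase, fell by 0.92 (adjusted p = 0.00388), and P3h2 by 0.74 (adjusted p = 0.00209). In these vehicle arrays 48 h and 6 h may also differ in processing, which cannot be told apart from time.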
